A study of Mus musculus with 6 samples.

Results

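Coro1a and 9 genes of the actin cytoskeleton were followed in CD8+ T cells of thymus, spleen and tumor. The 10 genes were chosen by symbol from the 32227 genes counted, and all 10 were found. They are Coro1a, the actins Actb and Actg1, the filament and monomer regulators Cfl1, Pfn1, Tmsb4x and Tmsb10, the filament bundler Lcp1, and the branching factors Arpc1b and Was. The study isolated CD8+ T cells from mice with a conditional deletion of Pdcd1, the gene of the inhibitory receptor PD-1, and from control mice. It prepared single-cell RNA libraries with a PIPseq kit, a droplet method that counts each captured RNA molecule by a unique molecular identifier (UMI). The 6 libraries were 1 per tissue and genotype, so the spread between mice of a group could not be measured, and no test between genotypes or tissues was run. Intervals in square brackets are exact 95% intervals that cover counting error only, except those beside a median of the members. Those brackets hold the medians of the members' lower and upper bounds, averaged over both labels or libraries first where a comparison has a ratio for each. They are not 95% intervals of the median.

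The mice were adult C57BL/6 animals. The deleted group, labelled Pdcd1 cKO, carried floxed Pdcd1 alleles and a Cre recombinase driven by the E8I element of Cd8a, which is active in CD8 lineage cells after positive selection in the thymus. The control group, labelled Pdcd1fl/fl, carried the same floxed alleles without Cre. Thymic and splenic libraries, labelled as baseline, came from a single mouse each and were enriched with a CD8a+ isolation kit. Tumor libraries came from B16-OVA, a mouse melanoma line that makes chicken ovalbumin, on day 12 after injection. Tumors of several mice were pooled for each tumor library, digested, cleared of dead cells and enriched with CD8 microbeads for tumor-infiltrating lymphocytes (TILs). Tissue, the way a tissue was processed, and baseline against tumor-bearing mice therefore cannot be told apart in comparisons with the tumors.

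Actin monomers assemble into filaments that give a T cell its shape, drive its migration and build the contact with a target cell. Profilin and thymosins bind monomers, cofilin cuts and disassembles filaments, the Arp2/3 complex starts branches when activated by proteins such as WASP, and plastin bundles the filaments. Coronin 1A, the product of Coro1a, binds filaments and the Arp2/3 complex in blood cells, and its loss in mice and humans leaves few naive T cells in the periphery.

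Depth differed widely between the libraries, and pairs of values are given with the library labelled Pdcd1fl/fl first. Thymic libraries held 1067 and 2674 barcodes with medians of 4361 and 5384 UMIs and totals of 6389966 and 19304377 UMIs. The splenic pair held 6929 and 4963 barcodes with medians of 728 and 1611 UMIs and totals of 5935926 and 8964626 UMIs. In the tumors, 457 and 561 barcodes had medians of 13837 and 9510 UMIs and totals of 9401747 and 7924590 UMIs. The splenic library labelled Pdcd1fl/fl was thus the shallowest per barcode. A cell was kept when it had a minimum of 500 detected genes and 1000 UMIs and when mitochondrial genes gave no more than 20% of its UMIs. This filter kept 1067 and 2635 thymic, 1478 and 4928 splenic, and 456 and 561 tumor cells. The splenic libraries shared 2 barcode sequences, and no other pair of libraries shared any.

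CD8-expressing cells were defined as filtered cells with a UMI of Cd8a or Cd8b1 and a UMI of Cd3d, Cd3e or Cd3g, outside clusters named as another lineage. They made up 55.1% and 66.4% of filtered thymic cells (588 and 1749 cells), 52.8% and 75% of splenic cells (781 and 3696) and 60.1% and 81.5% of tumor cells (274 and 457). Their median depth was 4336.5 and 5486 UMIs in thymic, 1401 and 1713 in splenic, and 11055.5 and 9190 in tumor T cells. Cells of clusters named cycling or immature were not left out, and no gene of immature thymocytes was used to exclude cells. The thymic set, called thymic T cells below, can therefore hold precursors beside mature cells, and this mix was not matched between labels or tissues. Values of a gene are its UMIs summed over these cells and scaled to a common total (CPM) unless another set of cells is named.

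Pdcd1 RNA in CD8-expressing cells went against the labels in thymus and spleen and not in the tumors. Thymic cells had 2.47 [1.13, 4.68] CPM under the label Pdcd1fl/fl and 9.18 [7.58, 11.0] CPM under the label Pdcd1 cKO, from 9 and 116 UMIs. Splenic cells had 0.782 [0.0198, 4.36] and 11.9 [9.50, 14.8] CPM, from 1 and 84 UMIs. Tumor cells had 188 [175, 203] and 154 [143, 165] CPM, from 694 and 793 UMIs, so the library labelled Pdcd1 cKO was lower there and still held Pdcd1 RNA. Over every filtered tumor cell, melanoma-like cells included, the order was the opposite, with 76.4 [70.9, 82.2] and 102 [95.1, 109] CPM. The position of the counted 3′ ends relative to the deleted exons was not examined, so these values do not settle the genotype of a library. The study reports that flow cytometry of thymic CD8+ T cells showed the loss of PD-1 in Pdcd1 cKO mice. Libraries are named by their labels throughout. Tmsb4x and Was are X-linked. Ddx3y, a Y-linked gene, had between 751 and 5080 UMIs in each library, and Xist had at most 12, so each library held Y-linked RNA and little Xist.

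Together the 10 genes gave a larger share of UMIs in tumor than in thymic T cells. Their summed share in CD8-expressing cells was 1.15% and 1.29% of UMIs in thymic, 2.07% and 2.39% in splenic, and 3.09% and 3.97% in tumor T cells. The order of the 6 libraries was thymus, spleen and tumor, and within each tissue the library labelled Pdcd1 cKO had the larger share. These orders rest in part on the thymosin genes Tmsb4x and Tmsb10, the most abundant of the 10. The other 8 genes together, a sum chosen after seeing the data, gave 0.650% and 0.530% in thymic, 0.571% and 0.855% in splenic, and 1.22% and 1.54% in tumor T cells. On that sum both tumor libraries were still the highest, while the splenic library labelled Pdcd1fl/fl lay between the thymic ones and the thymic library labelled Pdcd1 cKO had the smaller share. Over every filtered cell the shares were 1.02% and 1.13%, 2.04% and 2.34%, and 2.12% and 3.43%. The tumor library labelled Pdcd1fl/fl lay near the splenic libraries on that count, and this library also held the most melanoma-like cells, as given with the cell classes. The order of thymus and spleen is one of pooled cells. Filtered cells of thymic clusters 11 and 8 labelled Pdcd1fl/fl, named naive or mature and effector, had 2.18% and 2.14%. Splenic CD8-expressing cells with that label had 2.07%. Under the label Pdcd1 cKO such thymic clusters ran from 1.63% to 1.97%, below the splenic 2.39%.

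**Figure D1:**
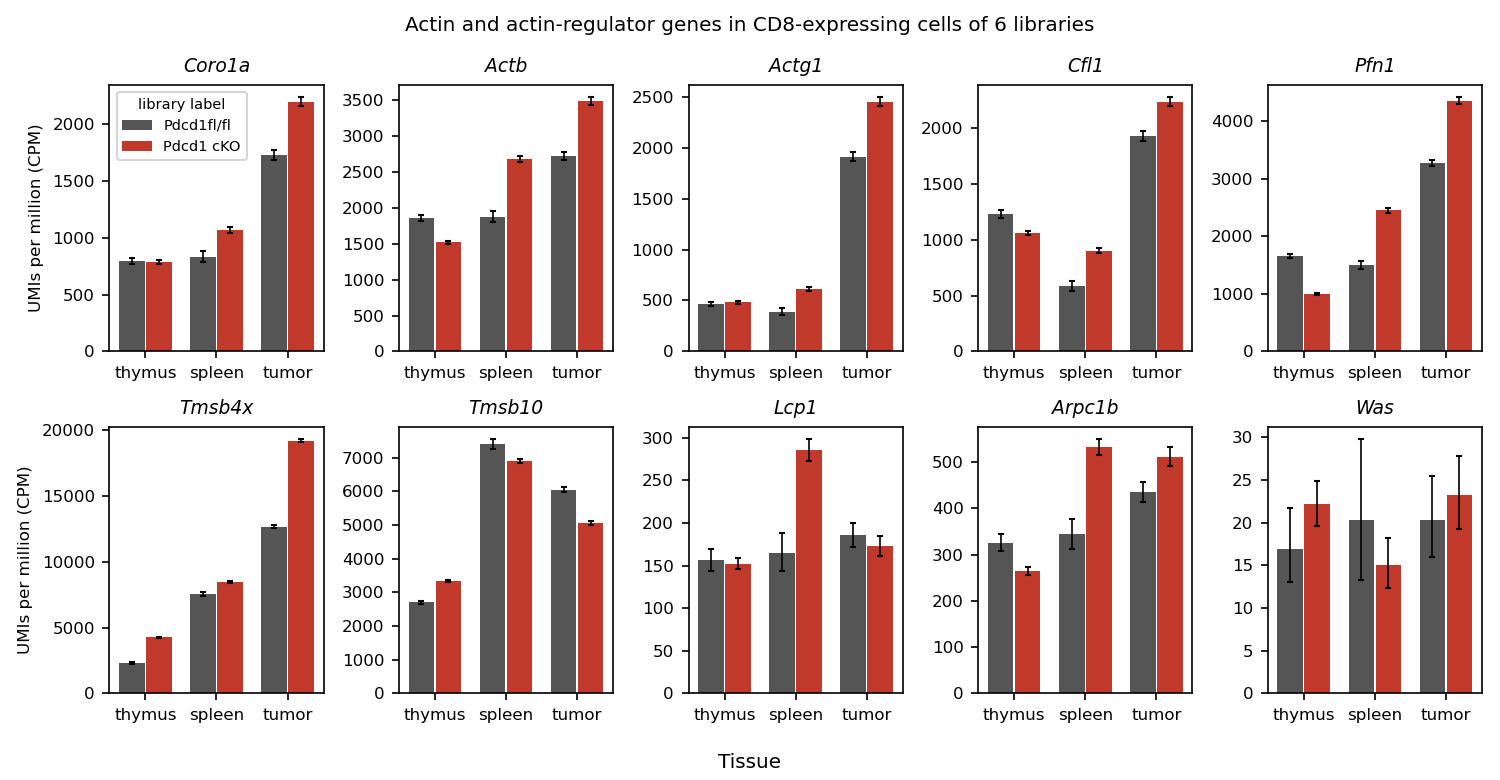
CPM of each of the 10 genes in CD8-expressing cells of the 6 libraries, by tissue and label, with exact Poisson 95% intervals. Coro1a runs from 788 CPM in the thymic library labelled Pdcd1 cKO to 2199 CPM in the tumor library with that label, while Lcp1 is highest in the splenic library labelled Pdcd1 cKO, at 286 CPM.

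Coro1a (ENSMUSG00000030707), the blood-cell coronin, lies at chr7:126298942-126307022 on the minus strand of GRCm39. It stood at 795 [767, 825] and 788 [773, 804] CPM in the thymus, from 2903 and 9969 UMIs. Splenic values were 833 [784, 884] and 1071 [1047, 1096] CPM, from 1065 and 7551 UMIs. In the tumors it reached 1727 [1685, 1770.3] and 2199 [2158, 2239] CPM, from 6363 and 11356 UMIs. Both tumor libraries lay above both splenic ones, and the intervals of the thymic pair and of the splenic library labelled Pdcd1fl/fl overlapped. The thymic libraries did not differ beyond counting error (log2 ratio −0.01 [−0.07, 0.05], Pdcd1 cKO label over Pdcd1fl/fl label). In the spleen the log2 ratio was 0.36 [0.27, 0.46] and in the tumors 0.35 [0.30, 0.39], both under 1.5-fold.

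Actb (ENSMUSG00000029580, chr5:142888870-142892509, minus strand) and Actg1 (ENSMUSG00000062825, chr11:120236512-120239617, minus strand) encode the beta and gamma actins of nonmuscle cells. Actb stood at 1859 and 1524 CPM in thymic, 1874 and 2681 CPM in splenic, and 2724 and 3491 CPM in tumor T cells. Actg1 stood at 465 and 482 CPM in thymic, 388 and 612 CPM in splenic, and 1911 and 2452 CPM in tumor T cells. Thymic and splenic libraries thus lay between 388 and 612 CPM for Actg1, and both tumor libraries lay above them. As a share of the UMIs of both actins, Actg1 made up 19.998% and 24.0% in thymic, 17.2% and 18.6% in splenic, and 41.2% and 41.3% in tumor T cells. This share does not depend on the scaling to a total, and the tumor pair did not overlap the other 4 libraries.

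The coding sequences of the actins have 1128 bases each, of which 1000 were the same at the same position (88.7%). Near the 3′ end, which this method counts, the actin transcripts shared no window of 91 bases, the length of the RNA read, with each other. Of the 500 such windows nearest to the 3′ end of Actg1, 81.8% also occurred in the annotated gene Gm70496, which is not among the genes counted. Tmsb10 shared 2.6% of such windows with Tmsb10b, also not among the genes counted, and the other 8 members shared 0. Part of the reads of Actg1 could therefore have been assigned to more than 1 place, and how the counting treated them was not tested. Whether the tumor libraries were counted with the annotation of the others was not tested either. Both limits bear on the actin share and on the tumor over spleen ratio of Actg1. The limit of annotation also bears on each other comparison of the tumor libraries with thymus or spleen, for the other members and the wider list alike.

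A CArG box, the motif bound by serum response factor, was searched on both strands in windows from 250 bases before to 50 bases after each transcription start (RefSeq, GRCm38.p6). Windows were found for 9 of the 10 genes, and the entry missing was that of Actb. Of these 9 genes 1 held the motif, Actg1, against 488 of 27025 gene symbols with a window (1.81%). The stretch around it is shown because Actg1 had the largest tumor over spleen ratio of the 10 genes, with the motif in capitals, at chr11:120348551-120348610 on the minus strand and 90 bases before the start.
Actg1: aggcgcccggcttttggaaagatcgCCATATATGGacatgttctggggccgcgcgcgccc
A match describes these letters and was not tested for binding.

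Cfl1 (ENSMUSG00000056201, chr19:5540483-5545229, plus strand) encodes cofilin 1, which severs filaments. It stood at 1228 and 1062 CPM in thymic, 583 and 902 CPM in splenic, and 1925 and 2233 CPM in tumor T cells. The spleen was the low tissue for Cfl1 and the tumor the high one in both labels. Pfn1 (ENSMUSG00000018293, chr11:70540882-70545976, minus strand) encodes profilin 1, which feeds monomers to growing ends. Its values were 1655 and 1004 CPM in thymic, 1499 and 2446 CPM in splenic, and 3270.4 and 4353 CPM in tumor T cells. The labels pointed opposite ways for Pfn1 in thymus and spleen, with log2 ratios of −0.72 [−0.77, −0.68] and 0.71 [0.64, 0.78].

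Tmsb4x (ENSMUSG00000049775, chrX:165990089-165992311, minus strand) and Tmsb10 (ENSMUSG00000079523, chr6:72934330-72935737, minus strand) encode thymosins, small proteins that hold actin monomers in reserve. Tmsb4x stood at 2298 and 4279.5 CPM in thymic, 7578 and 8472 CPM in splenic, and 12635 and 19173 CPM in tumor T cells. Its order was thymus, spleen and tumor in both labels, with no overlap between tissues. Tmsb10 stood at 2701 and 3331 CPM in thymic, 7395 and 6899 CPM in splenic, and 6049.7 and 5069.95 CPM in tumor T cells, so it was highest in the spleen in both labels. The share of Tmsb10 among the UMIs of both thymosins was 54.0% and 43.8% in thymic, 49.4% and 44.9% in splenic, and 32.4% and 20.9% in tumor T cells. The tumor libraries thus had the lowest Tmsb10 share of the 6.

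Lcp1 (ENSMUSG00000021998, chr14:75367978-75468289, plus strand) encodes L-plastin, the filament bundler of blood cells. It stood at 156 [144, 169.8] and 152 [146, 159] CPM in the thymus, 165 [144, 189] and 286 [273, 298] CPM in the spleen, and 186 [172, 200.4] and 173 [162, 185] CPM in the tumors. The splenic library labelled Pdcd1 cKO stood apart, and the intervals of neighbours in the order of the other 5 overlapped. Lcp1 gave 98.8% to 100% of the UMIs of Lcp1 and Pls3, a plastin of other tissues, in CD8-expressing cells of the 6 libraries. In melanoma-like cells of the tumor libraries it gave 63.5% [56.3, 70.4] and 75.8% [63.6, 85.5], from 122 of 192 and 50 of 66 UMIs.

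Arpc1b (ENSMUSG00000029622, chr5:145051025-145067515, plus strand) encodes a subunit of the Arp2/3 complex, and Was (ENSMUSG00000031165, chrX:7947405-7956737, minus strand) encodes WASP, its activator in blood cells. Arpc1b stood at 326 and 265 CPM in thymic, 344 and 532 CPM in splenic, and 434 and 512 CPM in tumor T cells. The splenic library labelled Pdcd1 cKO and both tumor libraries were high and the thymic pair was low. Was had few UMIs, between 26 in the splenic library labelled Pdcd1fl/fl and 280 in the thymic library labelled Pdcd1 cKO. Its level was 17.0 and 22.1 CPM in thymic, 20.3 and 15.0 CPM in splenic, and 20.4 and 23.2 CPM in tumor T cells. Intervals of neighbours in the order of levels overlapped, while the splenic library labelled Pdcd1 cKO, at [12.3, 18.2], lay below the thymic and tumor libraries with that label, at [19.6, 24.9] and [19.3, 27.8].

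The comparison of labels within a tissue asked how the 10 genes differed between CD8-expressing cells labelled Pdcd1 cKO and Pdcd1fl/fl. Ratios have the library labelled Pdcd1 cKO as numerator, and a gene was called higher or lower from 1.5-fold on, among genes with at least 100 UMIs in both libraries together. Because Pdcd1 RNA went against the labels in thymus and spleen, a direction there is given for the libraries and not for a deletion seen in their RNA. In the thymus 1 of 10 members was higher, beside 7.53% of 9147 genes tested, and 1 was lower, beside 18.9%. Tmsb4x was the higher gene (log2 ratio 0.90 [0.86, 0.93]) and Pfn1 the lower. The median of the members was −0.02 [−0.12, 0.07], and that of all genes tested was −0.18. Tmsb10 had a log2 ratio of 0.30 [0.27, 0.33], Actb −0.29 [−0.33, −0.25], Arpc1b −0.30 [−0.39, −0.20] and Cfl1 −0.21 [−0.26, −0.16]. Intervals of Coro1a, Actg1, Lcp1 and Was included 0.

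The scaling mattered in the thymus. Leaving mitochondrial, ribosomal protein and Malat1 UMIs out of the totals (reduced totals) moved the median of all genes by 0.21, with 13.1% of genes then higher and 9.68% lower. Scaling by the median of ratios over genes moved it by 0.18, with 12.1% higher and 10.6% lower. Pfn1 then stood at −0.52 and −0.54, under 1.5-fold, while Tmsb4x stayed higher at 1.10 and 1.08. The values of Coro1a turned to 0.19 and 0.17 and those of Lcp1 to 0.17 and 0.14, and Was passed 1.5-fold with reduced totals (0.59).

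In the spleen 5 of 10 members were higher, beside 18.8% of 6922 genes tested, and 0 were lower, beside 3.48%. The higher genes were Lcp1 (log2 ratio 0.79 [0.59, 1.00]), Pfn1 (0.71 [0.64, 0.78]), Actg1 (0.66 [0.52, 0.80]), Cfl1 (0.63 [0.52, 0.74]) and Arpc1b (0.63 [0.49, 0.77]). Actb had a log2 ratio of 0.52 [0.46, 0.58], Tmsb4x 0.16 [0.13, 0.19] and Tmsb10 −0.10 [−0.13, −0.07]. Was, from 26 and 106 UMIs, gave −0.44 [−1.07, 0.24]. The median of the members was 0.57 [0.47, 0.66], and that of all genes tested was 0.18. Of the 5 calls 1 held under other scalings, that of Lcp1, at 0.66 with reduced totals and 0.61 with the median of ratios. The median of all genes moved by −0.13 and −0.18 under these scalings, with 13.3% and 11.6% of genes higher and 6.26% and 7.80% lower. Such a scaling moves each gene by the same amount, so the other calls ended through these moves and not through a change among the members. With a stricter cell filter of 1000 genes, 2000 UMIs and 10% mitochondrial UMIs, Lcp1 was again the 1 member called, at 0.95, beside 18.0% of 3624 genes higher and 8.28% lower, and the all-gene median moved by −0.11. Tmsb4x turned to −0.02 with the median of ratios. With the mean over cells of the share of UMIs 5 members were higher, beside 20.6% of genes, and 1 lower, beside 3.94%.

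Among tumor T cells 1 of 10 members was higher, beside 10.9% of 4905 genes tested, and 0 were lower, beside 5.36%. The higher gene was Tmsb4x, with a log2 ratio of 0.60 [0.59, 0.62], just past 1.5-fold. Pfn1 had a log2 ratio of 0.41 [0.38, 0.44], Actg1 0.36 [0.32, 0.40], Actb 0.36 [0.32, 0.39], Arpc1b 0.24 [0.15, 0.33] and Cfl1 0.21 [0.17, 0.26]. Tmsb10 had the lowest value, −0.25 [−0.28, −0.23], and the intervals of Lcp1 and Was included 0. The median of the members was 0.29 [0.24, 0.39] beside 0.08 for all genes tested. The call of Tmsb4x ended with reduced totals (0.47) and with the median of ratios (0.52). Reduced totals moved the all-gene median by −0.13 and left 7.58% of genes higher and 8.20% lower, and the median of ratios left 8.73% and 6.91%.

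**Figure D2:**
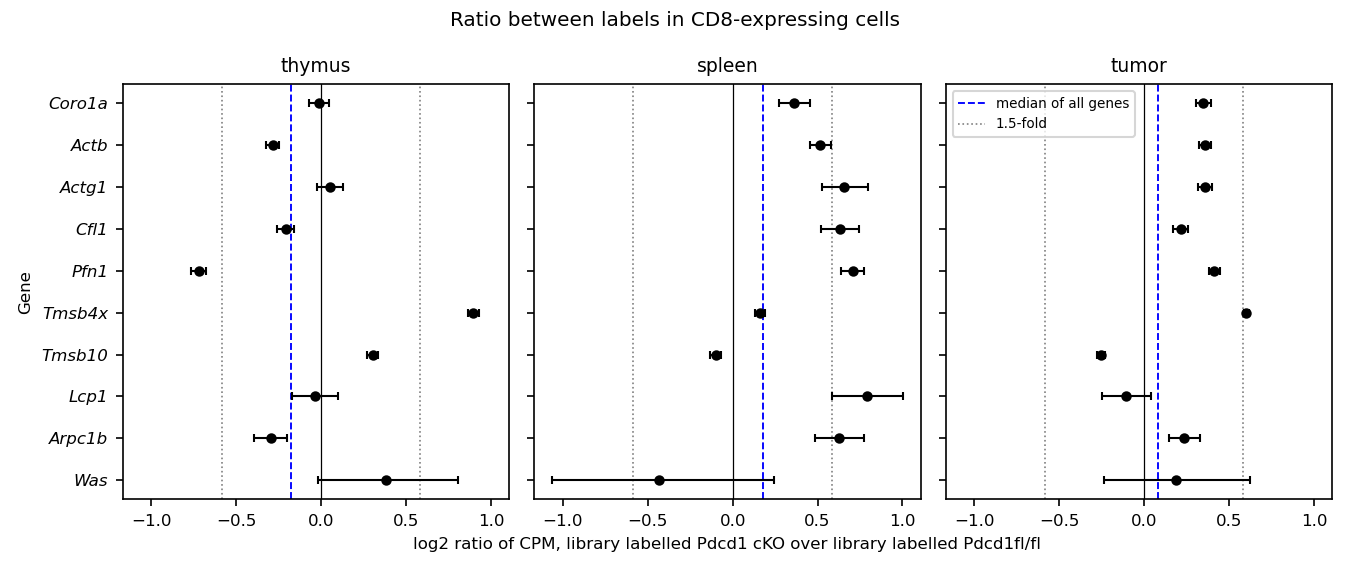
Log2 CPM ratio between labels (Pdcd1 cKO over Pdcd1fl/fl) of each of the 10 genes in CD8-expressing cells, by tissue, with bars for exact conditional binomial 95% intervals, a dashed line at the median of all genes and dotted lines at 1.5-fold. Pfn1 lies at −0.72 for thymic and 0.71 for splenic cells, and Tmsb4x at 0.90 in the thymus, 0.16 in the spleen and 0.60 in the tumors.

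Clusters gave a view of the labels within more similar cells. Both libraries of a tissue were clustered together without the 10 genes and without the wider actin list among the variable genes, and ratios were formed over the filtered cells of clusters with at least 20 cells of each library. The libraries lay mostly in different clusters. Thymic cluster 1 held 521 of the 1067 cells labelled Pdcd1fl/fl and 3 of the other library, splenic cluster 2 held 1062 of 1478 and 0, and splenic clusters 0 and 1 held 1338 and 1062 of the 4928 cells labelled Pdcd1 cKO and 13 and 16 of the other library. Ratios within clusters therefore rest on a part of the cells. In the 6 such thymic clusters Actb lay between −0.55 and −0.14 and Pfn1 between −0.88 and −0.01, below 0 in each, with intervals that included 0 in cluster 5 for Actb and in clusters 0, 2 and 5 for Pfn1. Tmsb10, with a pooled ratio above 0, lay between −1.72 and −0.15, below 0 in all 6. Tmsb4x lay above 0 in 5 of 6 thymic clusters, from −0.56 to 0.93. Coro1a lay below 0 in 4 of 6, from −0.60 to 0.16. In the cycling cluster 3 (81 and 302 cells) Coro1a was past 1.5-fold, at −0.60 [−0.83, −0.36], and its interval included 0 in the other clusters. The pooled thymic values of Tmsb10 thus had the opposite direction to the 6 clusters with a ratio, and the part that the mix of clusters played was not tested.

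In the 5 splenic clusters Lcp1 lay between 1.21 and 2.29, Pfn1 between 0.31 and 1.47 and Actb between 0.36 and 0.85, above 0 in each, with intervals that included 0 in cluster 11 for Lcp1 and Pfn1. Coro1a lay between 0.16 and 0.29, and its interval included 0 in each of the 5. Actg1 lay above 0 in 4 of 5, from −0.27 to 0.76. In the tumors, 2 T cell clusters without a lineage name had enough cells of each library. Tmsb4x lay at −0.16 [−0.19, −0.13] in cluster 1 (159 and 68 cells) and at 0.22 [0.15, 0.28] in cluster 4 (93 and 30 cells). Coro1a lay at −0.08 [−0.16, −0.01] and 0.33 [0.16, 0.51] in these clusters. Neither gene reached 1.5-fold in these 2 T cell clusters. Of the library labelled Pdcd1 cKO, 361 of 561 filtered cells lay in clusters 0 and 3, with fewer than 20 cells of the other library each.

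The summed share of the 10 genes varied between clusters with at least 50 cells of a library. In the thymus it ran from 0.464% of UMIs in cycling cells (cluster 3, Pdcd1 cKO label), led by Atad5 and Cep152, to 2.18% in naive or mature cells (cluster 11, Pdcd1fl/fl label). Thymic clusters named cycling or immature lay under 1%, and those named naive or mature or effector lay above it. Splenic clusters ran from 1.39% (cluster 3, led by Ptprj) to 2.71% (cluster 0, led by Gzmm), both of the library labelled Pdcd1 cKO. Among tumor T cells the share was highest in cluster 0 of the library labelled Pdcd1 cKO (4.42%), led by Trgc2 and Gzma, and lowest in the naive or mature cluster 4 of the library labelled Pdcd1fl/fl (2.18%), led by Ccr7.

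The comparison of tissues set spleen against thymus and tumor against spleen within each label, and a gene was called when both labels passed 1.5-fold in the same direction. From thymus to spleen 2 of 9 members tested were higher, beside 8.48% of 5728 genes, and 0 were lower, beside 18.3%. These were the thymosins. Tmsb4x had log2 ratios of 1.72 [1.68, 1.76] and 0.99 [0.97, 1.00], and Tmsb10 of 1.45 [1.41, 1.49] and 1.05 [1.03, 1.07]. Filtered cells of thymic clusters 11 and 8 labelled Pdcd1fl/fl, named naive or mature and effector, had Tmsb4x at 5849 and 7322 CPM. Tmsb10 stood there at 8220 and 6725 CPM, and the matching splenic cells had 7578 (Tmsb4x) and 7395 CPM (Tmsb10). Such clusters labelled Pdcd1 cKO ran from 5910 to 8768 CPM (Tmsb4x) and 3178 to 6229 CPM (Tmsb10), beside splenic 8472 and 6899 CPM. The part that the mix of thymic stages played was not tested. The median over the members was 0.45 [0.35, 0.54] beside −0.25 for all genes tested. Cfl1 had −1.08 [−1.19, −0.96] and −0.24 [−0.28, −0.19], below 0 in both labels but past 1.5-fold in 1. Was had under 100 UMIs in the libraries labelled Pdcd1fl/fl and was not counted.

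The libraries labelled Pdcd1 cKO had larger spleen over thymus ratios than the others for the 7 members that were tested and not called, Cfl1 among them. Pfn1 had log2 ratios of −0.14 and 1.28, Arpc1b of 0.08 and 1.01, Lcp1 of 0.08 and 0.91, Actb of 0.01 and 0.82, Coro1a of 0.07 and 0.44, and Actg1 of −0.26 and 0.35. Without the libraries labelled Pdcd1fl/fl, an alternative chosen after seeing the data because the splenic library was shallow, 6 members were higher, beside 18.9% of 9644 genes. The difference between labels was not tested. Scaling by the median of ratios moved the all-gene median by 0.24, with 12.4% of genes higher and 14.9% lower.

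From spleen to tumor 5 of 10 members were higher, beside 22.6% of 3877 genes tested, and 0 were lower, beside 35.7%. Actg1 had the largest log2 ratios, 2.30 [2.17, 2.43] and 2.00 [1.95, 2.05], followed by Cfl1 with 1.72 [1.62, 1.84] and 1.31 [1.26, 1.35]. Coro1a had 1.05 [0.96, 1.15] and 1.04 [1.00, 1.08], Pfn1 1.13 [1.06, 1.195] and 0.83 [0.80, 0.86], and Tmsb4x 0.74 [0.71, 0.77] and 1.18 [1.16, 1.19]. Coro1a was thus about as much higher in tumor T cells under either label. The untested annotation of the tumor libraries is a limit for each of these ratios. Actb had 0.54 and 0.38, under 1.5-fold, and Tmsb10 had −0.29 and −0.44. Lcp1 was 0.17 and −0.72, Arpc1b 0.34 and −0.06, and Was 0.00 and 0.63, so these genes had no common direction beyond counting error. The median of the members was 0.71 [0.67, 0.92] beside −0.21 for all genes tested. The median of ratios moved the all-gene median by 0.48, with 32.0% of genes higher and 25.2% lower, and turned the mean ratios of Tmsb10 and Lcp1 to 0.11 and 0.20. Reduced totals moved it by 0.11 and the stricter cell filter by 0.32. Leaving out the libraries labelled Pdcd1fl/fl, also chosen after seeing the data, moved it by −0.62, with 6 members higher, beside 17.9% of 7829 genes, and 1 lower, Lcp1, beside 55.4%. The member added to the higher ones was Was.

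T cells, melanoma cells and macrophages were compared within the tumor libraries. The melanoma-like cluster held 142 and 58 cells with medians of 31889 and 35962.5 UMIs, and its Pmel level was 4694 and 5629.7 CPM against 57.8 and 53.0 CPM in CD8 T-like cells. The macrophage-like cluster held 27 and 34 cells with medians of 8831 and 7047.5 UMIs, and Lyz2 stood at 3774 and 4061 CPM there. CD8 T-like cells were those of clusters 0 and 3, with 29 and 361 cells and medians of 8812 and 8850 UMIs. They came mostly from the library labelled Pdcd1 cKO, and clusters 1 and 4, which held most T cells of the library labelled Pdcd1fl/fl, did not reach 3 T cell markers at 2-fold over the other cells. The class is therefore a part of the T cells, and CD8-expressing cells were used beside it.

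Coro1a, Tmsb4x, Lcp1 and Was were low in melanoma-like cells, and Actb, Actg1, Cfl1, Pfn1 and Arpc1b were shared. Of 9 members tested 8 were higher in CD8 T-like than in melanoma-like cells, beside 9.56% of 4060 genes, and 0 were lower, beside 43.9%. Coro1a stood at 2093 and 2377 CPM in CD8 T-like cells and at 32.2 and 77.4 CPM in melanoma-like cells, a log2 ratio of 6.02 [5.78, 6.28] and 4.94 [4.72, 5.16]. Tmsb4x stood at 20338 and 22137 CPM against 218 and 815 CPM, a log2 ratio of 6.55 [6.46, 6.64] and 4.76 [4.70, 4.83]. These were the members with the largest ratios in both libraries. Lcp1 had 231 and 175 CPM against 23.1 and 21.9 CPM, and Was had 20.4 and 24.1 CPM against 1.51 and 1.31 CPM. Was, with 6 and 91 against 8 and 3 UMIs, was not counted (log2 ratio 3.75 [1.95, 5.47] and 4.20 [2.61, 6.505]).

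Relative to total UMIs, melanoma-like cells held the general actin genes at a lower level than CD8 T-like cells. Actb stood at 1489 and 1551 CPM, which was 40.6% and 40.1% of the CD8 T-like level. Actg1 stood at 41.6% and 48.0% of that level, Pfn1 at 36.9% and 34.3%, Arpc1b at 42.3% and 48.9%, and Cfl1 at 62.2% and 65.9%. Tmsb10 was the exception, with 7692 and 12843 CPM in melanoma-like cells, 112% and 265% of the CD8 T-like level. The median of the members was 1.40 [1.33, 1.47] beside −0.68 for all genes tested. Melanoma-like cells had far higher median UMIs than T cells, so a lower CPM does not mean fewer UMIs per cell, which were not compared. Actb had 7869 and 3545 UMIs in 142 and 58 melanoma-like cells. It had 1078 and 14593 UMIs in 29 and 361 CD8 T-like cells. Scaling moved the background. With reduced totals the all-gene median moved by 0.32, with 14.7% of genes higher and 33.2% lower, and with the median of ratios by 0.74, with 21.6% and 22.4%.

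Genes of the T cell receptor complex were taken as a measure of background RNA in melanoma-like cells. Cd3e, a T cell receptor chain gene that melanoma cells should lack, stood there at 2.10% and 4.38% of its CD8 T-like level, and Trac at 2.57% and 3.56%. Coro1a, at 1.54% and 3.26%, and Tmsb4x, at 1.07% and 3.68%, lay at or near these values. Lcp1, at 9.98% and 12.5%, lay above them, with Ptprc at 5.56% and 6.76%. In the 30 melanoma-like cells without a Cd3 UMI of the library labelled Pdcd1fl/fl, a set chosen after seeing the data, Coro1a stood at 37.4 CPM and Tmsb4x at 196 CPM.

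Macrophage-like cells were nearer to T cells. Of 9 members tested 2 were higher in CD8 T-like cells, beside 27.5% of 709 genes, and 1 was lower, beside 24.0%. Coro1a was higher, with 881 and 687 CPM in macrophage-like cells and log2 ratios of 1.25 [1.03, 1.47] and 1.79 [1.61, 1.97]. Pfn1 was higher, with 2172 and 2944 CPM in macrophage-like cells and ratios of 0.77 [0.62, 0.92] and 0.67 [0.58, 0.75]. Lcp1 was lower in T cells, with 693 and 321 CPM in macrophage-like cells and ratios of −1.58 [−2.01, −1.17] and −0.87 [−1.15, −0.58]. Coro1a and Lcp1, both genes of blood cells, thus pointed opposite ways between these classes. Actb stood at 5674 and 4475 CPM in macrophage-like cells (−0.63 and −0.21), and Tmsb4x at 14298 and 18090.4 CPM (0.51 and 0.29). Cd3e stood at 5.32% and 15.5% of its CD8 T-like level there, against 42.1% and 28.9% for Coro1a. In the 13 and 4 macrophage-like cells without a Cd3 UMI, a set chosen after seeing the data, Actb stood at 5073 and 1865 CPM. These were 138% and 48.2% of its CD8 T-like level, so its direction turned under the label Pdcd1 cKO, from few cells.

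The median of the members was −0.05 [−0.24, 0.38] beside 0.29 for all genes tested. With reduced totals the all-gene median moved by 0.39, with 45.3% of genes higher and 19.0% lower, and 4 members were higher and 0 lower. With the median of ratios it moved by −0.20, with 18.8% and 26.4%, and 1 member was higher and 2 lower. CD8-expressing cells as the T cell side, an alternative chosen after seeing the data, gave 1 higher member, beside 23.2% of 2814 genes, and 1 lower, beside 21.2%. The number of members called against macrophages thus moved with the scaling and with the T cells used.

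**Figure D3:**
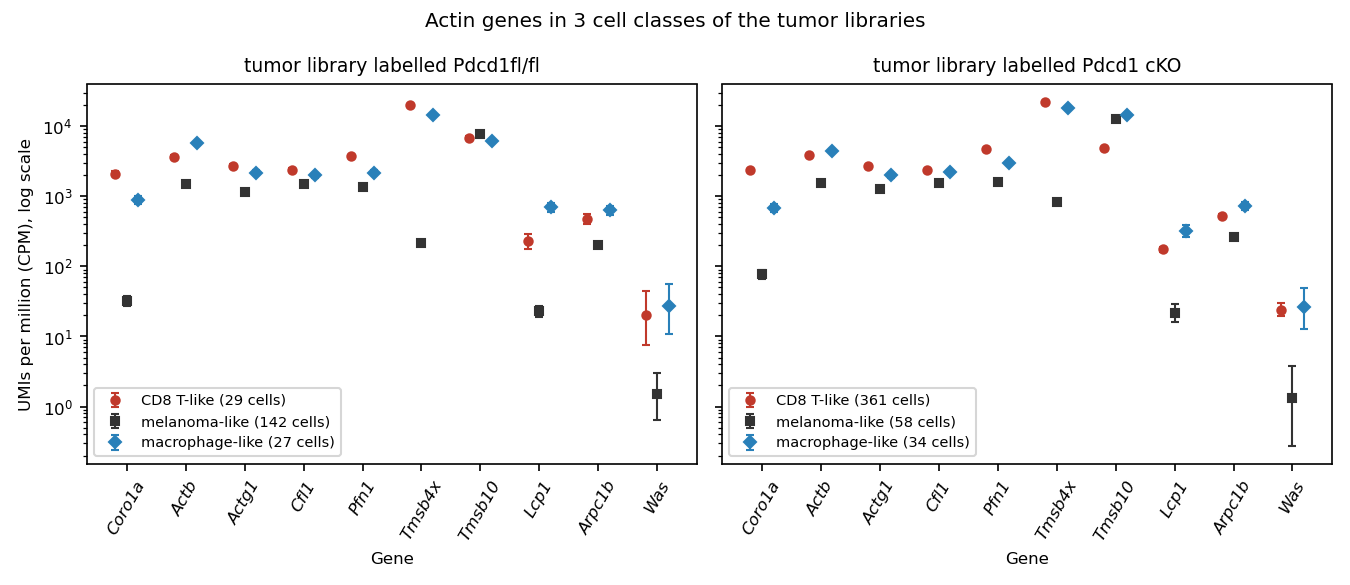
CPM (log axis) of each of the 10 genes in CD8 T-like, melanoma-like and macrophage-like cells of the 2 tumor libraries, with exact Poisson 95% intervals. Coro1a falls from 2093 and 2377 CPM in CD8 T-like cells to 32.2 and 77.4 CPM in melanoma-like cells, while Tmsb10 is at 7692 and 12843 CPM in melanoma-like cells.

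Label ratios were also formed within the melanoma-like and macrophage-like clusters. In melanoma-like cells the log2 ratio of the library labelled Pdcd1 cKO over the other was 1.91 [1.80, 2.01] for Tmsb4x, 1.27 [0.96, 1.58] for Coro1a and 0.74 [0.72, 0.76] for Tmsb10. Coro1a and Tmsb4x lay near the relative levels of Cd3e and Trac there, and the libraries held 274 and 457 CD8-expressing cells beside 142 and 58 melanoma-like cells. The part of free RNA in these ratios was not tested. In macrophage-like cells Tmsb10 had a ratio of 1.26 [1.18, 1.34], Lcp1 of −1.11 [−1.46, −0.77] and Coro1a of −0.36 [−0.62, −0.10]. Tmsb10 was thus past 1.5-fold in both classes and under it in T cells, and the difference between classes was not tested.

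Shares within families of related genes were set side by side in blood and melanoma cells. Coro1a gave 94.3% to 96.4% of the UMIs of Coro1a, Coro1b and Coro1c in CD8-expressing cells of the 6 libraries, 83.3% and 81.4% in macrophage-like cells, and 19.7% and 38.3% in melanoma-like cells. These shares rest in part on Coro1b, which had 1 to 14 UMIs in thymic and splenic libraries. Rac2, the Rac GTPase of blood cells, gave 77.4% to 91.4% of Rac1 and Rac2 in CD8-expressing cells, 39.5% and 60.5% in macrophage-like cells (70 of 177 and 121 of 200 UMIs), and 5.92% and 19.0% in melanoma-like cells. Was gave 40% to 55.3% of Was and Wasl in thymic and splenic and 81.5% and 78.9% in tumor CD8-expressing cells, 46.7% and 62.5% in macrophage-like cells (7 of 15 and 10 of 16 UMIs), and 3.59% and 3.75% in melanoma-like cells. Tmsb10 gave 25.2% and 18.0% of both thymosins in CD8 T-like cells, 29.7% and 44.5% in macrophage-like cells, and 97.2% and 94.0% in melanoma-like cells. Actg1 gave 42.6% and 40.8% of both actins in CD8 T-like cells, 43.2% and 45.3% in melanoma-like cells, and 27.5% and 30.7% in macrophage-like cells. Under the label Pdcd1 cKO the intervals of CD8 T-like [40.2, 41.4] and melanoma-like cells [44.0, 46.5] lay apart. Pairs in which the main gene dominates everywhere were Cfl1 with Cfl2 (95.7% and 96.0% in melanoma-like cells) and Pfn1 with Pfn2 (99.0% and 99.1%).

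A wider list of 75 genes of the actin pathway was counted by the same rules. Between labels in the thymus 1 of 65 genes tested was higher, beside 7.53% of all genes, and 0 lower, beside 18.9%, with a median of −0.13 beside −0.18. The higher gene was Gsn, the severing protein gelsolin, at 0.81 [0.29, 1.37], and the lowest values were those of Capza2 (−0.57), Vav1 (−0.55) and Flna (−0.53). In the spleen 11 of 61 genes were higher, a share near the 18.8% of all genes, and 1 was lower, beside 3.48%, with a median of 0.35 beside 0.18. Dstn, a relative of cofilin, had 1.46 [0.36, 2.81], the capping gene Capg 1.13 [0.45, 1.89] and the myosin Myo1f 1.03 [0.52, 1.59], and Twf1 had −0.91 [−1.40, −0.39]. In the tumors 3 of 57 genes were higher, beside 10.9% of all genes, and 1 lower, beside 5.36%, with a median of 0.13 beside 0.08. The higher genes were the formin Diaph3 (1.33 [0.88, 1.81]), Coro1b (0.74 [0.45, 1.04]) and the WAVE complex gene Cyfip2 (0.59 [0.30, 0.89]), and the lower gene was the crosslinker Actn1 (−1.64 [−2.12, −1.17]).

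From thymus to spleen 7 of 57 genes of the wider list were higher, beside 8.48% of all genes, and 3 lower, beside 18.3%, with a median of 0.04 beside −0.25. The formin and Ena/VASP genes held 3 of the higher genes, among 5 tested, with Evl at 1.09 and 1.41 and Vasp at 1.75 and 1.00, and the formin Diaph3 was lower at −2.86 and −1.94. Flna, which crosslinks filaments, was higher at 1.05 and 1.93. From spleen to tumor 7 of 53 genes were higher, beside 22.6% of all genes, and 23 lower, beside 35.7%, with a median of −0.33 beside −0.21. Each of the 3 ERM genes, which link filaments to the membrane, was lower, with a median of −1.57. The WAVE complex and nucleation genes had 4 lower and 1 higher of 7, the formin and Ena/VASP genes 3 lower of 4, and the Arp2/3 complex 2 higher and 1 lower of 8. The lowest were Abi1 (−3.04 and −3.32), Dock2 (−2.93 and −3.01) and Evl (−2.45 and −3.35), and Arpc4 (3.50 and 3.24) and Capg (3.32 and 1.98) were among the highest.

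Coro1b, a coronin of many cell types, had the largest tumor over spleen ratio of the wider list. It had 1 and 2 UMIs in splenic and 141 and 331 UMIs in tumor CD8-expressing cells, with log2 ratios of 5.61 [3.11, 10.93] and 7.82 [5.96, 10.87]. Thymic cells had 2 and 14 UMIs. Coro1c, by contrast, had 175 and 542 UMIs in thymic, 45 and 280 in splenic, and 96 and 199 in tumor T cells. Coro1b was thus close to absent from thymic and splenic counts and plain in the tumor counts, whose gene order also differed from that of the other libraries and was aligned by gene identifier. Whether the libraries were counted with the same annotation was not tested.

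Against melanoma-like cells 15 of 50 wider genes tested were higher in CD8 T-like cells, beside 9.56% of all genes, and 14 lower, beside 43.9%, with a median of 0.02 beside −0.68. Rac2 had 5.89 [5.52, 6.29] and 4.58 [4.26, 4.92], the capping subunit Capzb 1.52 and 1.28, and the myosin light chain Myl12b 1.43 and 1.36. The lower genes included Nckap1 (−3.28 and −5.46), the WAVE subunit of nonblood cells, Cfl2 (−2.69 and −3.75) and Tpm1 (−2.86 and −3.15). Against macrophage-like cells 1 of 19 genes was higher, Rac2 (1.65 and 1.38), beside 27.5% of all genes, and 6 were lower, beside 24.0%, with a median of −0.47 beside 0.29. Capg (−0.90 and −2.62), the Arp2/3 subunit Actr2 (−2.01 and −1.42) and the ERM gene Msn (−1.90 and −1.39) had the lowest values.

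Shares of cells with a UMI were compared after each CD8-expressing cell had been thinned to 1000 UMIs, which left out 0 cells. Coro1a was found in 52.6% and 50.4% of thymic, 47.9% and 62.5% of splenic, and 74.8% and 82.7% of tumor cells. Without thinning the shares were 92.9% and 95.2%, 61.6% and 79.3%, and 98.9% and 100%, in the order of depth of the tissues. Thinned shares of Actg1 were 36.6% and 34.2%, 27.7% and 41.8%, and 77.0% and 87.7%, so both genes were found most often in tumor T cells. Lcp1 was found in 15.3% and 14.4%, 12.8% and 23.7%, and 14.6% and 13.6%. Tumor cell classes were thinned in the same way, with 0 cells left out. CD8 T-like cells, with medians of 8812 and 8850 UMIs, had Coro1a in 86.2% and 87.8% and Cd3e in 44.8% and 36.3% of cells. Melanoma-like cells, with medians of 31889 and 35962.5 UMIs, had Coro1a in 4.93% [2.00, 9.89] and 5.17% [1.08, 14.4] of cells, Lcp1 in 0.704% and 1.72%, and Cd3e in 1.41% [0.171, 4.995] and 5.17% [1.08, 14.4]. The intervals of Coro1a and Cd3e overlapped in each library. They rest on 7 and 3 cells with Coro1a and 2 and 3 cells with Cd3e. In all UMIs of melanoma-like cells Coro1a stood at 32.2 [27.5, 37.4] and 77.4 [66.4, 89.7] CPM. Cd3e stood at 9.08 [6.70, 12.0] and 18.8 [13.6, 25.3] CPM, so the overlap does not show equal levels. Relative to the CD8 T-like level of each gene the order was the other way, with Coro1a at 1.54% and 3.26% and Cd3e at 2.10% and 4.38%. Without thinning Coro1a was found in 62.0% and 91.4% of melanoma-like cells.

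The spread of counts between cells was measured by their variance over their mean, which is 1 where counting alone varies. The variance of thinned Tmsb4x counts over their mean was 3.803 and 3.13 in thymic, 2.27 and 2.39 in splenic, and 4.41 and 4.14 in tumor T cells. Tmsb10 had 4.18 and 2.71 in thymic, 1.30 and 1.58 in splenic, and 1.76 and 1.89 in tumor T cells. Coro1a had 1.19 and 1.17, 1.53 and 1.19, and 1.18 and 1.32. Of the 3 tissues, the thymus had the largest values for Tmsb10 and, at 1000 UMIs, the tumors for Tmsb4x. At 500 UMIs Tmsb4x had 2.36 and 2.17 in thymic and 2.33 and 2.55 in tumor T cells, so the order turned under the label Pdcd1fl/fl. Thinned means of Tmsb4x at 1000 UMIs were 2.86 and 5.18 in thymic and 12.6 and 20.2 in tumor T cells. The part of the mean in these values was not tested.

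Genes were ranked by their likeness to Coro1a over sums of cells. Over 39 combinations of library and cluster with at least 50 cells, Pearson's r of log2(CPM + 10) was highest for Cd3d (0.93), Thy1 (0.89), Ptprcap (0.88), Rac2 (0.88) and D16Ertd472e (0.87), among 8319 genes with at least 500 UMIs. Combinations of a library share its depth and preparation, so r is a description of these libraries. Of the other 9 members Tmsb4x came nearest, at rank 11 (0.84), followed by Lcp1 at 57 (0.68), Arpc1b at 96 (0.60), Was at 104 (0.59), Actb at 155 (0.53) and Pfn1 at 236 (0.46). Actg1 (0.13), Cfl1 (0.07) and Tmsb10 (0.06) ranked at 1270, 1683 and 1771. The melanoma-like cells are among the combinations.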

How the data were processed

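Single-cell RNA of CD8+ T cells was measured in 6 PIPseq libraries. The authors aligned reads to GRCm39 and deposited a UMI count per gene and barcode without normalization, then used Seurat 4.3.0, SCTransform and Harmony. Harmony is not installed here, so libraries of a tissue were merged without integration (R 4.3.3, Seurat 5.3.0, sctransform 0.4.2). Genes of the tumor files, partly in another order, were aligned by Ensembl identifier. Sums, intervals and thinning used Python 3.11.15, numpy 2.4.6, scipy 1.17.1 and pandas 2.3.3, and the ratio code was tested on simulated data. A cluster was named from at least 3 markers of a class. Scrublet (scanpy 1.11.5) marked 1 and 10 thymic, 10 and 0 splenic, and 0 and 3 tumor cells, so few that the caller may not have worked, and doublets were kept. Named genes were the 10 members, in each comparison the 3 highest and 3 lowest of the wider list, Pdcd1, the 5 genes most like Coro1a, class and sex checks and leading genes of clusters. Coro1c was added after its values were seen. The members and lists were chosen with earlier results of these data known.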

Additional observations from a re-analysis of the deposited data

Results flagged for a closer look

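For 5 genes the label ratio (Pdcd1 cKO over Pdcd1fl/fl, log2, CD8-expressing cells) pointed opposite ways in different tissues, with counting intervals on both sides of 0. Actb had −0.29 in the thymus, 0.52 in the spleen and 0.36 in the tumors. Cfl1 had −0.21, 0.63 and 0.21, Pfn1 had −0.72, 0.71 and 0.41, and Arpc1b had −0.30, 0.63 and 0.24 in the same order. Tmsb10 had the opposite pattern, with 0.30, −0.10 and −0.25. With reduced totals the thymic values were −0.08 for Actb, −0.004 for Cfl1, −0.52 for Pfn1, −0.09 for Arpc1b and 0.51 for Tmsb10. Within thymic clusters Tmsb10 lay below 0 in 6 of 6. The differences between tissues were not tested, and with 1 library per group a tissue and a library cannot be told apart.

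The spleen over thymus ratio differed in direction between labels for Actg1, at −0.26 under the label Pdcd1fl/fl and 0.35 under Pdcd1 cKO, and for Pfn1, at −0.14 and 1.28. Tmsb10 in CD8 T-like over macrophage-like cells was 0.18 under the label Pdcd1fl/fl and −1.58 under the label Pdcd1 cKO. These differences were not tested either.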

How the results depend on the processing

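Of 527 values of single members under alternatives 327 stayed within their counting interval, 200 left it and 0 called values changed sign. With reduced totals the member median was 0.18 between thymic labels, 0.44 between splenic and 0.16 between tumor labels, and 1.72 for T over melanoma cells. Under the median of ratios it was 0.15, 0.39 and 0.21 between labels, 0.69 from thymus to spleen, 1.19 from spleen to tumor, 2.14 for T over melanoma cells and −0.25 for T cells over macrophages. The stricter cell filter gave 0.29 between splenic labels, 0.56 from thymus to spleen and 0.60 from spleen to tumor, and the mean over cells of the share of UMIs gave 0.40 between tumor labels. Of the alternatives chosen after seeing the data, leaving out the libraries labelled Pdcd1fl/fl gave 0.86 from thymus to spleen, CD8-expressing cells as T cells gave 1.197 over melanoma cells, and melanoma cells without a Cd3 UMI gave 1.59. In that last set the library labelled Pdcd1 cKO held 2 cells with 0 UMIs of Coro1a, Lcp1 and Was, which entered the median at a bound of 3 UMIs and had no ratio of their own. Higher members in the spleen went from 5 to 1 with reduced totals, the median of ratios and the stricter filter, and lower members from 0 to 1 with the median of ratios and the mean of shares. In the tumors 1 higher member became 0 under both scalings. In the thymus 1 lower member became 0 under both, and 1 higher became 2 with reduced totals. Without the libraries labelled Pdcd1fl/fl, members higher from thymus to spleen went from 2 to 6 and those lower from spleen to tumor from 0 to 1. Members higher from spleen to tumor went from 5 to 6 there and with the median of ratios, and those higher over melanoma cells from 8 to 7 with the mean of shares and with the 2 added sets of cells. Against macrophages 2 higher and 1 lower became 4 and 0 with reduced totals and 1 and 2 with the median of ratios, and 2 higher became 1 with CD8-expressing cells as T cells. The cause of these moves was not tested. Leaving out doublets, a gene minimum of 20 UMIs, every filtered cell outside other lineages and cluster resolutions of 0.5 and 1.2 changed no member count. The minimum of 20 UMIs moved the calls among all genes to 13.4% higher and 20.5% lower between thymic, 24.6% and 8.23% between splenic, and 19.3% and 11.0% between tumor labels. Without a cell filter the 10 genes gave 1.12% of UMIs in the thymic library labelled Pdcd1 cKO and 2.01% in the splenic library labelled Pdcd1fl/fl. Leaving Tmsb4x and Tmsb10 out of the sum, chosen after seeing the data, brought the summed share in CD8-expressing cells to 0.650% and 0.530% in thymic, 0.571% and 0.855% in splenic, and 1.22% and 1.54% in tumor T cells. Thinning to 500 UMIs, which leaves fewer UMIs to find, gave a median share of cells over the 10 genes of 36.4% and 34.2% for thymic, 27.1% and 37.2% for splenic, and 55.1% and 66.6% for tumor cells, against 58.5% and 53.4%, 44.0% and 59.4%, and 78.1% and 88.8% at 1000 UMIs. Depth limits Was in all comparisons, the splenic library labelled Pdcd1fl/fl, and the 29 CD8 T-like cells of the tumor library with that label.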

Other observations

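Genes with a count pattern like that of Coro1b were looked for after its values were seen. Of 2517 genes with at least 100 UMIs in CD8-expressing cells of both tumor libraries, 8 (0.318%) had at most 3 UMIs in each of the other 4 libraries. The highest were the predicted genes Gm50057, with 1321 and 1907 UMIs in the tumors and 0 in each other library, and Gm10358, with 865 and 1440 UMIs in the tumors and at most 3 elsewhere. They also included Spp1, which encodes osteopontin, with 257 and 503 UMIs in the tumors and 0 in each other library, and Gzmf, a granzyme gene, with 153 and 236 UMIs in the tumors and 0 elsewhere. Coro1b was not among them because of its 14 UMIs in the thymic library labelled Pdcd1 cKO.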
